A study of Homo sapiens with 23 samples.

Results

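JUN, JUND and ATF3 are the genes of the AP-1 transcription factor and its partners that were followed here across thalamus organoids (ThOs). They were chosen by symbol and are 3 of the 9497 genes listed in each of the 12 RNA-seq tables of the series. ThOs are cultures of human pluripotent cells patterned towards thalamic tissue, and all of them came from H1, an established line of human embryonic stem cells. The WT group was grown from H1 without an edit. For the group labelled KO, CRISPR/Cas9 had been directed at the c-JUN gene of H1, and the group labelled KO+cJun carried the same genotype label, knockout, with cJun added in the sample titles for c-JUN supplied again, in the study from a tet-on construct induced with doxycycline. Each genotype was sampled at day 25 and day 30 of culture with 2 libraries, a library being the RNA of 3 ThOs put together. The study made more than 1 knockout clone, and the labels do not say which clone gave these libraries or whether replicates were separate cultures, so the p-values below measure only the spread between these libraries. The question was how transcripts of JUN, JUND and ATF3 stood in each genotype and day, and which genes followed JUN from library to library.

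AP-1 is a dimer of basic leucine zipper (bZIP) proteins that binds short palindromic elements in promoters and enhancers. c-JUN, the product of JUN, pairs with itself, with FOS proteins or with ATF proteins, is switched on by the JNK kinases, and is known in neurons for its induction after axon injury. JUND is a more steadily expressed relative of c-JUN, and ATF3 is a stress-induced ATF protein that often accompanies c-JUN in injured neurons.

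The promoters of all 3 genes hold an 8-letter element of the kind that ATF and JUN proteins bind, and they are shown because these genes are textbook examples of AP-1 genes with AP-1-type elements of their own. The sequences are from RefSeq (GRCh38.p14) and end before the transcription start. Each is written along the strand of the gene, with the element in capitals. TGACGTCA is the CRE, and TGACATCA is a close variant of it.

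JUN (chr1:58784067-58784154, minus strand): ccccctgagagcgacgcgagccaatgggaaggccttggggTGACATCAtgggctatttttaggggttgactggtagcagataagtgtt
JUND (chr19:18281775-18281862, minus strand): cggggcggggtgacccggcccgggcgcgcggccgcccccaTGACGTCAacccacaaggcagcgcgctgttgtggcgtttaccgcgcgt
ATF3, upstream promoter (chr1:212565244-212565331, plus strand): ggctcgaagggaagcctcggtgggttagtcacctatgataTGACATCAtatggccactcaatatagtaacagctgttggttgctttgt

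The first base of the element lay 67 bases before the start of JUN, 200 before that of JUND and 123 before that of ATF3. A downstream promoter of ATF3 held none of the letters searched for in its 250 bases. On either strand of the 250 bases before the start, TGACATCA was present in 2.37% of 35116 promoters, TGACGTCA in 1.65% and the shorter AP-1 element TGACTCA in 4.20%. Among the 11737 promoters of genes listed in the tables, the shares were 1.40%, 2.66% and 2.62%. TGACTCA was in none of the 4 windows of JUN, JUND and ATF3. These matches describe letters, and binding was not measured here.

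In each table a gene has 1 normalized value, a whole number without a stated unit and without a known read depth, and genes are not compared with each other by level because the values are not stated to be per length. JUN (ENSG00000177606) lies on GRCh38 chromosome 1 from 58776845 to 58784048 on the minus strand. At day 25 its values were 139 and 153 in WT, 353 and 196 in the libraries labelled KO, and 224 and 212 in KO+cJun. At day 30 they were 128 and 162 in WT, 222 and 248 in KO, and 362 and 202 in KO+cJun. All 4 WT libraries were lower than all 8 other libraries, the KO and KO+cJun libraries overlapped, and a single high library stood out on each day, from KO at day 25 and from KO+cJun at day 30. Where in the gene the edit lies is not given in the sources used here, and a value per gene does not separate the endogenous transcript from that of the construct, so the JUN value is no check of the knockout.

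The JUN transcript was not lower in the libraries labelled KO, and its mean was higher than in WT. Over both days its mean was 145.5 ± 15.02 (SD, n = 4) in WT, 254.8 ± 68.9 (SD, n = 4) in KO and 250 ± 75.2 (SD, n = 4) in KO+cJun. On the log2(value + 1) scale JUN was 0.77 higher in KO than in WT (SE 0.23, 95% confidence interval 0.27 to 1.28), a 1.71-fold difference. With limma the unadjusted p was 0.00589 and the p adjusted over all genes was 0.197, so JUN was not called. The difference was larger than that of 97.0% of the genes. KO+cJun was 0.74 above WT (SE 0.23, interval 0.24 to 1.24, adjusted p = 0.351), larger than for 98.6% of the genes. Between KO+cJun and KO the difference of JUN was -0.03 (SE 0.23, interval -0.53 to 0.47, adjusted p = 0.949), an interval that takes in a change of about 0.5 either way.

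The separation of JUN can be set beside that of other genes. In 2.74% of the 9497 genes all 4 KO libraries were above all 4 WT libraries, and in 0.232%, 22 genes, all 8 KO and KO+cJun libraries were. JUN was among both. Ordered by the log2 difference between those 8 libraries and WT, JUN was number 5 of the 22 with 0.76. LRFN1, TRAF2, RBBP5 and ANGPT1 stood above it, named here after their values were seen. The exact permutation test on 4 against 4 libraries gave its smallest possible two-sided p, 0.0286, for JUN in KO against WT and in KO+cJun against WT. Adjusted over the 9 such tests, both came to 0.129.

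**Figure D1:**
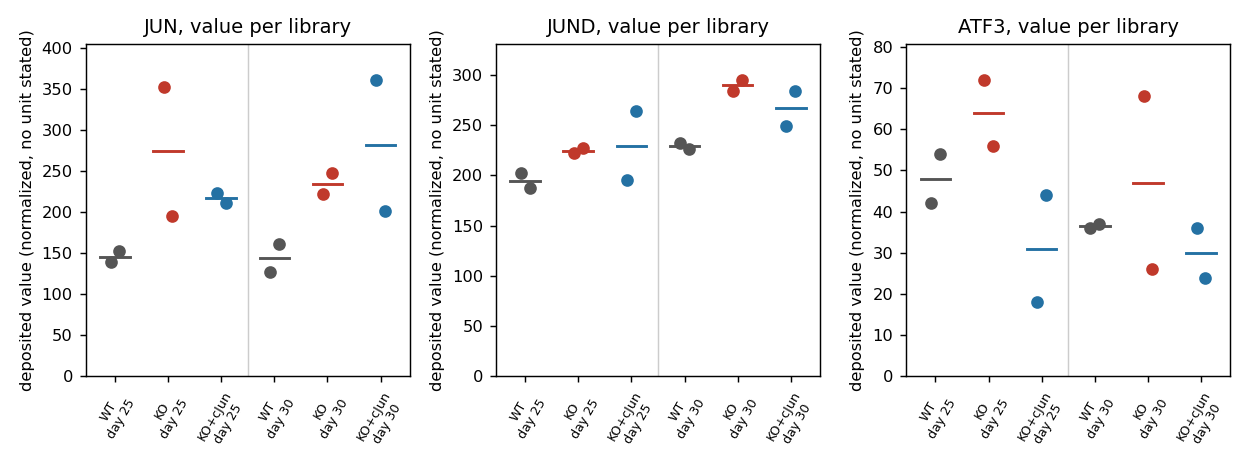
Deposited normalized value (vertical axis, no unit stated) of JUN, JUND and ATF3 in every library, by genotype and day (horizontal axis); points are libraries and lines are the means of 2 libraries. The 4 WT values of JUN lie between 128 and 162, below the 8 other libraries at 196 to 362, whereas the genotypes of JUND and ATF3 overlap over both days.

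Within each day JUN stood above WT in both other genotypes, with wider intervals. KO was above WT by 0.85 at day 25 (interval 0.14 to 1.56, adjusted p = 0.294) and by 0.70 at day 30 (interval -0.01 to 1.41, adjusted p = 0.643). Without the high library of KO, replicate 1, the day 25 difference was 0.42, and without replicate 2 it was 1.27. The day 30 effect minus the day 25 effect was -0.15 (SE 0.46, adjusted p = 0.956). KO+cJun was above WT by 0.58 at day 25 and by 0.90 at day 30, with adjusted p-values of 1 and 0.952. The day 30 value was 0.49 without the high library of KO+cJun, replicate 1, and 1.32 without replicate 2. Against KO, KO+cJun differed by -0.27 at day 25 and 0.20 at day 30. Day 30 minus day 25 was 0.04 for JUN over the genotypes (interval -0.37 to 0.45, adjusted p = 0.953). In increasing order of mean, the groups stood as WT at day 30 (145), WT at day 25 (146), KO+cJun at day 25 (218), KO at day 30 (235), KO at day 25 (274.5) and KO+cJun at day 30 (282). Only the step from WT at day 25 to KO+cJun at day 25 was larger than the SD of either neighbour.

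JUND (ENSG00000130522) lies on chromosome 19 from 18279694 to 18281622 on the minus strand. Its values at day 25 were 202 and 187 in WT, 222 and 227 in KO and 195 and 264 in KO+cJun. The values at day 30 were 232 and 226 in WT, 284 and 295 in KO and 249 and 284 in KO+cJun. Replicates of WT and KO lay close together, and KO was above WT on each day, a pattern that 4.74% of the genes shared. Over both days the KO and WT libraries overlapped, because WT at day 30 was as high as KO at day 25. Limma gave KO minus WT as 0.27 (SE 0.15, interval -0.05 to 0.59, adjusted p = 0.390) and KO+cJun minus WT as 0.22 (SE 0.15, interval -0.10 to 0.54, adjusted p = 0.807). KO+cJun minus KO was -0.05 (SE 0.15, interval -0.37 to 0.27, adjusted p = 0.860).

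JUND was the one of the 3 genes for which day carried more of the variation than genotype. Of its variance on the log2 scale 43.3% lay between the days, a share above that of 95.8% of genes, and 31.4% between genotypes. Day 30 was above day 25 by 0.28 (SE 0.12, interval 0.01 to 0.54), at an unadjusted p of 0.0408 and an adjusted p of 0.427. Within genotypes the difference was 0.24 in WT, 0.37 in KO and 0.23 in KO+cJun, with adjusted p-values of 1.00, 0.449 and 1. WT and KO libraries did not overlap between days and those of KO+cJun did, so JUND was not among the 1.41% of genes with day 30 above day 25 in every genotype. In increasing order the means were WT at day 25 (194.5), KO at day 25 (224.5), WT at day 30 (229), KO+cJun at day 25 (229.5), KO+cJun at day 30 (266.5) and KO at day 30 (289.5). The step from WT at day 25 to KO at day 25 exceeded the SD of both groups without overlap, the next step exceeded it narrowly with overlapping libraries, and the later steps did not exceed it.

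ATF3 (ENSG00000162772) lies on chromosome 1 from 212565334 to 212620777 on the plus strand. At day 25 it had values of 42 and 54 in WT, 72 and 56 in KO, and 18 and 44 in KO+cJun. Day 30 values were 36 and 37 in WT, 68 and 26 in KO, and 36 and 24 in KO+cJun. KO was the highest group at day 25, the 2 KO libraries of day 30 stood at both ends of the range of that day apart from 1 KO+cJun library, and KO+cJun held the lowest values on each day. The mean over both days was 42.3 ± 8.26 (SD, n = 4) in WT, 55.5 ± 20.8 (SD, n = 4) in KO and 30.5 ± 11.7 (SD, n = 4) in KO+cJun.

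KO+cJun was 0.82 lower than KO in ATF3 on the log2 scale (difference -0.82, SE 0.36, interval -1.61 to -0.04), with an unadjusted p of 0.0414 and an adjusted p of 0.206. At day 25 this difference was -1.14 (SE 0.51, interval -2.25 to -0.03, adjusted p = 0.268) and at day 30 it was -0.51 (SE 0.51, interval -1.62 to 0.61, adjusted p = 0.694). Single libraries weighed on these values. Over both days the difference was -0.48 without replicate 1 of KO at day 30, -0.51 without replicate 1 of KO+cJun at day 25 and -1.16 without replicate 2 of KO at day 30. At day 25 it was -0.52 without replicate 1 of KO+cJun and -1.76 without replicate 2. KO minus WT was 0.31 (SE 0.36, interval -0.48 to 1.09, adjusted p = 0.700) and KO+cJun minus WT was -0.52 (SE 0.36, interval -1.30 to 0.27, adjusted p = 0.816). Day 30 minus day 25 was -0.30 (SE 0.29, interval -0.94 to 0.34, adjusted p = 0.737). The groups in increasing order of mean were KO+cJun at day 30 (30), KO+cJun at day 25 (31), WT at day 30 (36.5), KO at day 30 (47), WT at day 25 (48) and KO at day 25 (64), and only the last step was larger than the SD of its neighbours. Values of ATF3 were low in these tables, with 11.6% of genes having a lower mean, and its spread on the log2 scale exceeded that of 85.2% of genes.

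**Figure D2:**
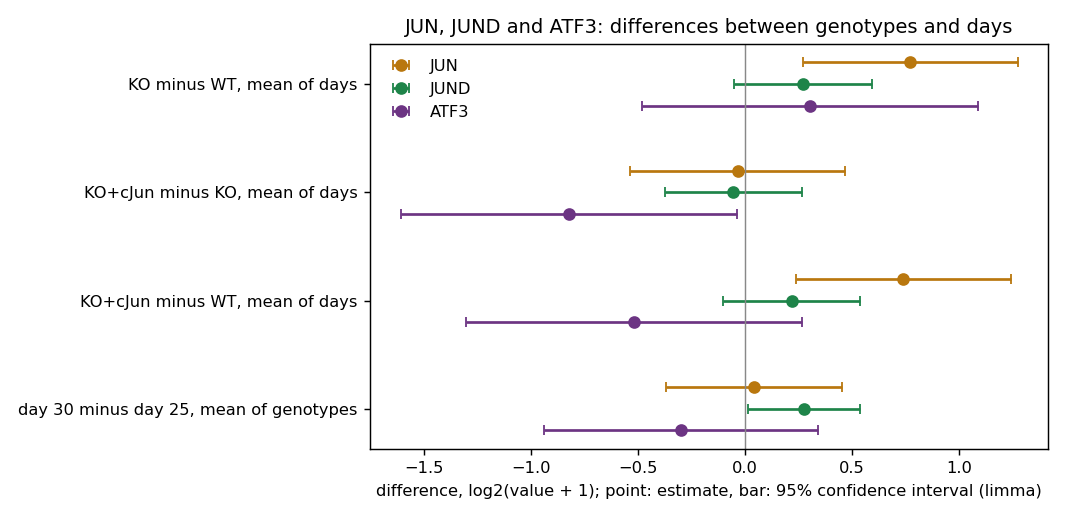
Differences of JUN, JUND and ATF3 on the log2(value + 1) scale (horizontal axis) between genotypes, averaged over both days, and between days, averaged over genotypes (vertical axis); points are limma estimates and bars 95% confidence intervals. JUN lies above 0 against WT in KO (0.77) and in KO+cJun (0.74), and ATF3 lies below 0 for KO+cJun against KO (-0.82), and none of these passed the adjustment over all genes.

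Across the 14 contrasts fitted with limma, 0 of 42 tests of the 3 genes were called, which takes a 2-fold change and an adjusted p under 0.05, and 7 had an unadjusted p under 0.05. Of all genes 0.0211% were called in KO minus WT over both days, 2.22% in KO+cJun minus KO, 0.158% in KO+cJun minus WT and 0% in day 30 minus day 25. Within days the shares were 0.0105% and 0% for KO minus WT at day 25 and day 30, 0.274% and 0.0842% for KO+cJun minus KO, and 0% and 0.0316% for KO+cJun minus WT. Limma called 0 genes between days within a genotype or for a change of the KO effect from day to day. At an unadjusted p under 0.05 the shares of genes higher and lower were 7.01% and 8.16% in KO minus WT, 11.5% and 10.7% in KO+cJun minus KO, 3.53% and 4.69% in KO+cJun minus WT, and 5.76% and 5.54% between days. The KO libraries were the less uniform ones. Spearman's rho between replicates was 0.821 for the day 25 pair of KO, 0.769 for its day 30 pair, and 0.936 to 0.959 in the other 4 groups, and replicate 2 of KO at day 30 reached only 0.745 as its median rho to the rest. Without replicate 1 of KO at day 30, which leaves that library alone in its group, 538 genes were called in KO minus WT instead of 2, JUN, JUND and ATF3 not among them.

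Genes on either side of the 3 loci were looked at for like differences. The 26 listed genes within 5 Mb of JUN had a median of -0.08 in KO minus WT and -0.01 in KO+cJun minus WT, where JUN itself had 0.77 and 0.74. Medians were -0.02 and 0.09 for 94 neighbours of JUND, and 0.08 and -0.01 for 23 neighbours of ATF3.

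No pair of the 3 genes passed a test of correlation from library to library. Over the 12 libraries Pearson's r was 0.34 between JUN and JUND (Spearman's rho 0.33, permutation p = 0.282), 0.07 between JUN and ATF3 (rho -0.05, permutation p = 0.822) and -0.08 between JUND and ATF3 (rho -0.18, permutation p = 0.801). Adjusted over the 3 pairs, each p was 0.822, and for rho the permutation p-values were 0.295, 0.889 and 0.580. Without the 2 libraries farthest from the median of the first gene, r became 0.57, -0.26 and 0.35, with adjusted permutation p-values of 0.264, 0.469 and 0.469. With group means subtracted r was -0.39, 0.21 and 0.31. Each group of 2 libraries then leaves a pair of equal and opposite values. These r therefore rest on 6 independent pairs, and no p is given for them. The same limit holds for every r inside groups given below. The libraries share their genotype and day, and JUN splits them into WT and the rest, so a pooled r mixes that step with the variation inside groups.

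Genes that tracked JUN were counted by their r. At r of at least 0.8 over the 12 libraries there were 6 genes for JUN (0.0632% of the other genes), 24 for JUND (0.253%) and 10 for ATF3 (0.105%), against a median of 56 over all genes. JUN had more such genes than 7.49% of all genes. Its count depended on the libraries and the measure, with 7 to 31 genes when 1 library was left out (31 without replicate 1 of KO+cJun at day 30), 110 with group means subtracted and 123 in WT and KO+cJun only. The counts of 110 and 123 rest on fewer independent values, where an r of 0.8 is reached more easily. No median over all genes was taken for them, so they do not show that more genes followed JUN. The 10 genes with the highest r to JUN were DACH2 (0.84), TRAF2 (0.84), HIKESHI (0.83), COX15 (0.83), ANGPT1 (0.82), MPV17 (0.82), KRIT1 (0.80), LRFN1 (0.80), NR2F2 (0.79) and TMCC2 (0.78). With group means subtracted their r ranged from 0.55 to 0.86, and without the 2 libraries farthest from the median of JUN, replicate 1 of KO at day 25 and replicate 1 of KO+cJun at day 30, from 0.56 to 0.85. TRAF2, HIKESHI, ANGPT1, LRFN1 and TMCC2 also belonged to the 22 genes whose KO and KO+cJun libraries all lay above WT. JUN has that split itself, so choosing genes by a high r to JUN favours it.

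TRAF2, an adaptor of tumour necrosis factor receptors that feeds into JNK signalling, was at 11 to 12 in the 4 WT libraries. Its values were 34, 18, 26 and 40 in KO and 19, 22, 26 and 14 in KO+cJun, so the genotypes other than WT were all higher, from a level near the bottom of the tables. Its r to JUN was 0.86 inside groups, the highest of the 10. NR2F2, a nuclear receptor of developing forebrain and of mesenchyme, had a mean of 282.5 in WT, 442.5 in KO and 439.3 in KO+cJun. DACH2, a transcriptional cofactor of the dachshund family, ran from 42 to 56 in WT and from 56 to 89 in the other libraries. ANGPT1, a secreted ligand of the TIE2 receptor of vessels, had means of 22.3 in WT, 45.3 in KO and 35 in KO+cJun. LRFN1, a synaptic adhesion protein, had means of 14.3, 40.5 and 22.5. COX15 and MPV17, both proteins of mitochondria, spanned 67 to 108 and 41 to 88. KRIT1, a scaffold at endothelial junctions, spanned 94 to 163. HIKESHI, a carrier of heat shock protein into the nucleus, spanned 32 to 104, and TMCC2, a membrane protein of the endoplasmic reticulum, 58 to 158.

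The 5 genes most opposed to JUN were APAF1 (r = -0.83), GAS7 (-0.82), PALLD (-0.82), CPXM1 (-0.81) and ANOS1 (-0.81), and inside groups their r ran from -0.86 to -0.52. APAF1, the scaffold of the apoptosome, had values of 121, 92, 68 and 70 in WT, 23, 52, 53 and 44 in KO and 84, 70, 36 and 54 in KO+cJun. It was lowest in the library with the highest KO value of JUN and next lowest in the library with the highest KO+cJun value. GAS7, which acts in neurite outgrowth, had a mean of 212 in WT, 92.8 in KO and 135.8 in KO+cJun. PALLD, an actin scaffold, had means of 284.3, 180.3 and 210.5. CPXM1, a secreted carboxypeptidase-like protein, had means of 344, 246.3 and 241. ANOS1, an extracellular protein of axon guidance, was at 114 to 148 in WT and at 18 to 109 in the other 8 libraries. In 41 of the 9497 genes all 8 KO and KO+cJun libraries lay below WT, as here. TGACTCA occurred in the promoter windows of TMCC2 and PALLD, 1 of 17 windows of the 10 genes and 1 of 6 of the 5 genes, and TGACATCA and TGACGTCA occurred in none of these windows.

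**Figure D3:**
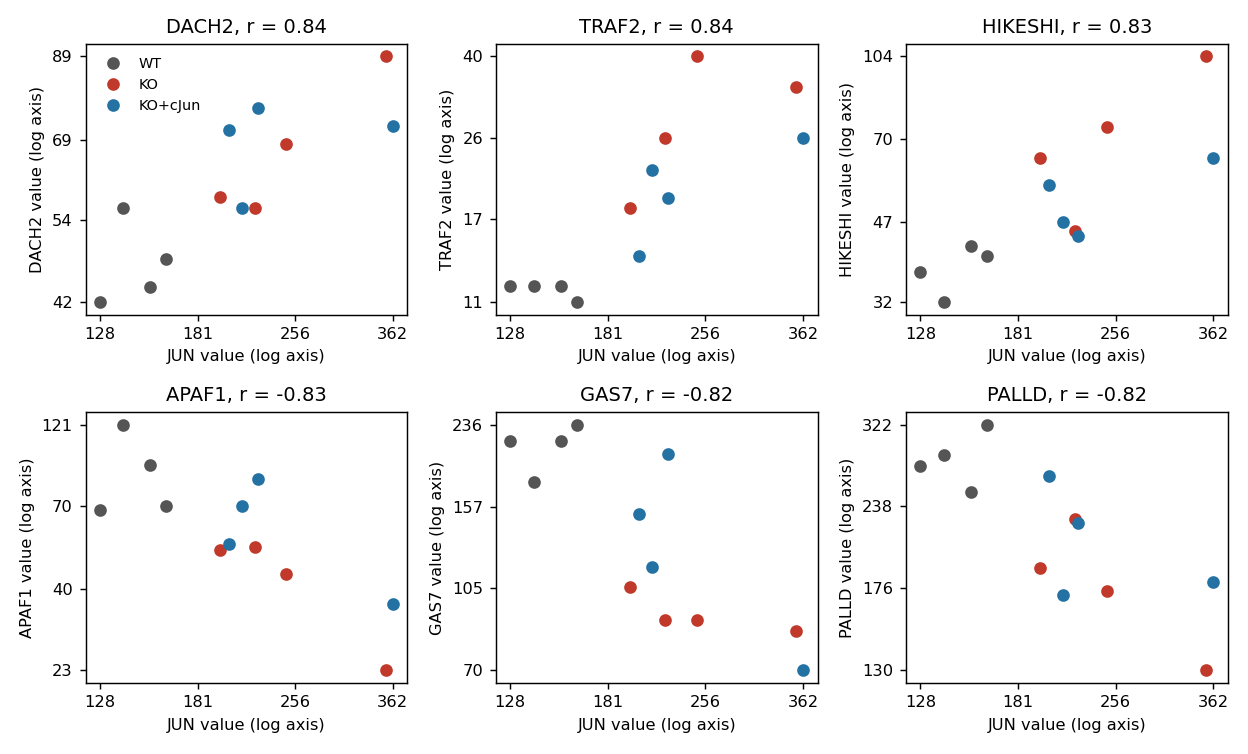
Values of the 3 genes with the highest Pearson r to JUN (DACH2, TRAF2, HIKESHI) and the 3 with the lowest (APAF1, GAS7, PALLD) on the vertical axes against JUN on the horizontal axes, both log axes of deposited values; each point is 1 of 12 libraries, coloured by genotype. The 4 WT libraries sit at the low end of JUN (128 to 162), and APAF1 is at 23 in the KO library with JUN at 353.

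JUND was tracked by PRKRA (r = 0.88), an activator of the kinase PKR, EEA1 (0.88) of early endosomes, NECAB2 (0.87), a neuronal calcium-binding protein, BLVRA (0.86), biliverdin reductase, and SC5D (0.86), an enzyme of cholesterol synthesis. SC5D had values of 123 to 166 at day 25 and 178 to 204 at day 30. It was chosen for its r to JUND, of whose variance 43.3% lay between days. The share of all genes with such a split was not counted. NECAB2 had means of 55.8 in WT, 117 in KO and 83.5 in KO+cJun. ATF3 was tracked by WNT10B (r = 0.92), a WNT ligand, ARFIP1 (0.92) of the Golgi, PIEZO2 (0.89), a mechanosensitive channel, SLC50A1 (0.88), a sugar transporter, and DHX32 (0.83), a helicase-like protein. WNT10B had values of 132, 116, 72 and 24 in KO, 45, 48, 31 and 24 in WT, and 12, 37, 47 and 14 in KO+cJun. With group means subtracted the r of WNT10B to ATF3 was 0.91. WNT10B was picked by its pooled r, which includes the variation inside groups, so this value is no separate support. These r values are descriptions over 12 libraries that share genotype, day and preparation.

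Of 29 genes of the AP-1 and related bZIP family, 11 others besides JUN, JUND and ATF3 were listed. The rest, among them the FOS genes and JUNB, were not analysed here. In KO minus WT over both days 0 of the 11 were called, with a median difference of -0.23 against -0.02 over all genes. At an unadjusted p under 0.05 there were 3 lower and 0 higher, against 8.16% and 7.01% of all genes. In KO+cJun minus KO 1 was higher at that level (11.5% of all genes), and in KO+cJun minus WT none was (3.53%). MAF, a large bZIP factor of the lens and of neuron subtypes, had values of 361, 394, 281 and 240 in WT, 124, 208, 130 and 112 in KO, and 387, 252, 186 and 204 in KO+cJun. The share of genes with all KO libraries below all WT libraries was not counted, and MAF was one of them. Its difference was -1.16 in KO minus WT (SE 0.20, adjusted p = 0.0846) and 0.82 in KO+cJun minus KO (SE 0.20, adjusted p = 0.0504), and its r to JUN was -0.65. With 1 WT or KO library left out at a time, the KO minus WT difference of MAF ran from -1.35 to -0.98. Each such fit leaves 1 library in a group.

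CREB1, the cAMP-responsive factor, had 132, 132, 198 and 24 in KO against 175 to 282 in WT, and the value of 24 came from replicate 2 of KO at day 30 (difference -1.16, SE 0.47, adjusted p = 0.283). ATF4, the effector of the integrated stress response, was at 674 to 748 in WT, 448 to 607 in KO and 536 to 732 in KO+cJun (KO minus WT -0.41, SE 0.13, adjusted p = 0.210), with r = -0.70 to JUN. ATF2, the usual ATF partner of c-JUN on CRE-type elements, had means of 325.8 ± 56.2 (SD, n = 4) in WT, 380.8 ± 45.1 (SD, n = 4) in KO and 409.3 ± 81.1 (SD, n = 4) in KO+cJun, a KO minus WT difference of 0.23 (adjusted p = 0.513). Its relative ATF7 had the highest r of the family to JUN, 0.53, and means of 67.5, 94.5 and 84. NFE2L2, the oxidative stress factor NRF2, had means of 67.8 in WT, 97.3 in KO and 70 in KO+cJun. NFE2L1 stood at 673.8, 723.5 and 621, and ATF6, a sensor of the endoplasmic reticulum, at 177.5, 184.3 and 180. CREB5 (38.8, 28.5 and 29), MAFG (85, 74.3 and 72) and CEBPG (206.3, 177.5 and 177) had their highest mean in WT. The adjusted p of these last 7 genes in KO minus WT was between 0.361 and 0.928.

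Genes of a list of immediate early and AP-1 target genes had lower mean log2 values in KO, none of them called. The list is not split by the direction in which AP-1 acts on a gene. Of 34 such genes 16 were listed, and the mean log2 value was lower in KO than in WT for 16 of 16, where 52.2% of all genes were lower. It was 14 of 16 without replicate 1 of KO on either day and 15 or 16 without any other WT or KO library. With limma 0 were called, and the median was -0.52 against -0.02 over all genes. At an unadjusted p under 0.05, 7 were lower and 0 higher, against 8.16% and 7.01% of all genes. In KO+cJun minus WT 0 were called, and the median was -0.39 against 0.00. At that level 6 were lower and 1 higher, against 4.69% and 3.53% of all genes. In KO+cJun minus KO 1 was called, against 2.22% of all genes, and the median was 0.23. There 4 were higher and 4 lower, against 11.5% and 10.7%. Their r to JUN had a median of -0.36 against -0.01 over all genes, and 15 of 16 were negative against 51.4%. JUN was high in KO and KO+cJun, where most of these genes were low, so these r are not a separate observation. Summed values of neural progenitor markers were 6762 to 13986 in WT, 3975 to 7783 in KO and 6857 to 8994 in KO+cJun for the 8 of 12 markers listed, among them VIM, which is in both lists. KO reached lower sums than WT with some overlap. The KO+cJun sums lay within the WT range only through the highest WT sum. The highest WT sum holds a VIM value of 9910, the maximum of the tables, where VIM was at 2670 to 3456 in the other 11 libraries. The part of cell makeup in the result was not tested, and fewer cells of a type cannot be told apart from less RNA per cell.

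DUSP6, a phosphatase induced by and acting on ERK, had the lowest log2 difference between KO and WT in the target list. Its values were 71, 74, 113 and 122 in WT, 12, 51, 40 and 21 in KO, and 80, 35, 43 and 38 in KO+cJun. KO minus WT was -1.74 on the log2 scale (SE 0.42, adjusted p = 0.176), and r to JUN was -0.76, the lowest of the list. With 1 WT or KO library left out at a time, the median difference of the 16 target genes ran from -0.56 to -0.42. Over all genes it ran from -0.03 to -0.01. VEGFA, the endothelial growth factor, differed by -1.32 (SE 0.47, adjusted p = 0.241), with 54, 123, 385 and 60 in KO and 178, 188, 432 and 424 in WT. SPARC and IER5 were closest to 0 in KO minus WT, at -0.17 and -0.02. By less than 2-fold, SPARC was lower in KO+cJun than in KO (-0.58, adjusted p = 0.0379) and in WT (-0.75, adjusted p = 0.0495). CCNA2, cyclin A2, was the gene called in KO+cJun minus KO, with a difference of 1.36 and an adjusted p of 0.0290. It had 118, 146, 104 and 150 in KO+cJun, 20, 48, 90 and 68 in KO and 84, 94, 72 and 78 in WT. Summed values of 9 proliferation markers moved with it, at 3279 to 3705 in KO+cJun, 1716 to 2459 in KO and 2195 to 3176 in WT, and their part was not tested.

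**Figure D4:**
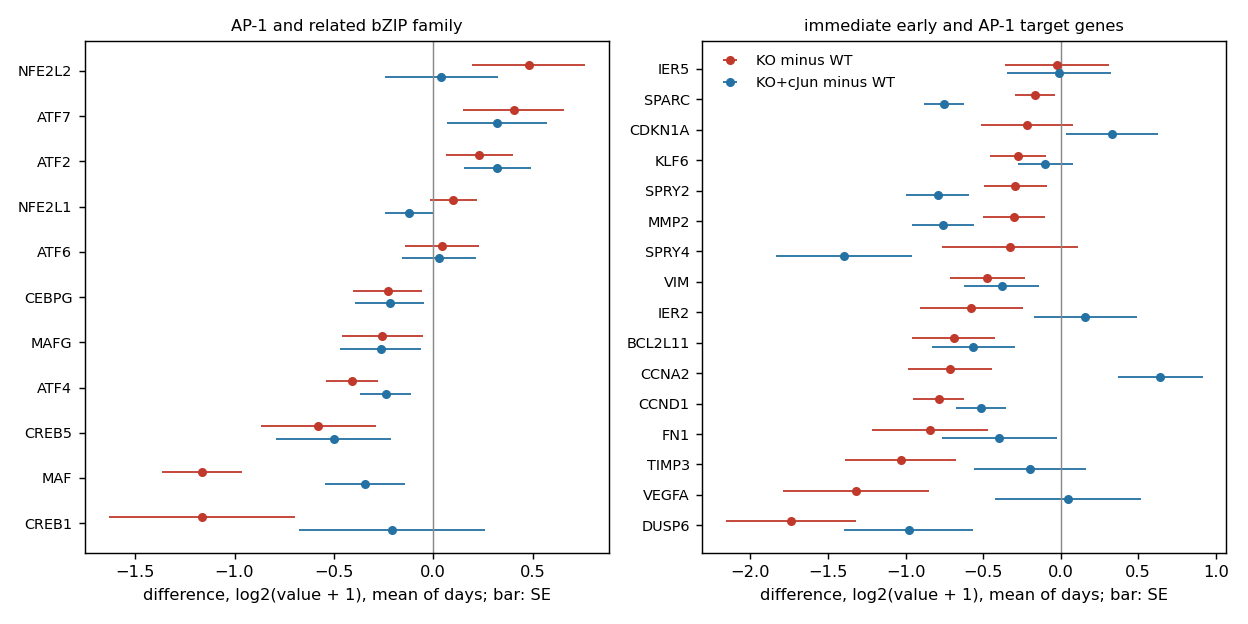
Differences on the log2(value + 1) scale over both days (horizontal axes) for 11 listed AP-1 and related bZIP genes (left) and 16 immediate early and AP-1 target genes (right), each row a gene; points are limma estimates against WT for KO and KO+cJun and bars are the SE. All 16 target genes lie below 0 in KO, from -1.74 for DUSP6 to -0.02 for IER5, and 12 of 16 do in KO+cJun.

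Genes acting on c-JUN protein were looked at by the same counts. Of 25 genes of the JNK cascade 21 were listed and 0 were called, with a median of -0.05 in KO minus WT. At an unadjusted p under 0.05, 1 was lower and 0 higher in KO minus WT, against 8.16% and 7.01% of all genes. MAP3K10 (0.60) and DUSP8 (0.44), a kinase and a phosphatase of the cascade, had the highest differences and MAP3K13 (-0.69) and DUSP16 (-0.54) the lowest, with adjusted p-values of 0.499, 0.482, 0.464 and 0.317. In KO+cJun minus KO 1 was lower at that level (10.7% of all genes) and in KO+cJun minus WT none was (4.69%). The medians were -0.08 and -0.05. For genes that turn over c-JUN protein 13 of 15 were listed and 0 called, and the median in KO minus WT was 0.00. At that level 1 was higher and 1 lower in KO minus WT, against 7.01% and 8.16% of all genes. DDB1 (0.38) and CUL4A (0.26), parts of a ubiquitin ligase, had the highest differences, and TRIB2, a pseudokinase, differed by -0.30. Adjusted p-values were 0.188 for DDB1, 0.473 for CUL4A and 0.346 for TRIB2.

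The integrated stress response, in which ATF3 acts below ATF4, had 15 of 21 genes listed and 0 called. In KO minus WT 1 was higher and 3 lower at an unadjusted p under 0.05, against 7.01% and 8.16% of all genes. In KO+cJun minus KO 4 were higher and 1 lower, against 11.5% and 10.7%. The medians were -0.23 in KO minus WT and 0.21 in KO+cJun minus KO. SLC7A11 (0.74), the cystine transporter, and XBP1 (0.48) had the highest differences in KO, and ASNS (-0.97), asparagine synthetase, and DDIT4 (-0.75) the lowest, with adjusted p-values of 0.370, 0.241, 0.290 and 0.351. XBP1 was the 1 gene lower in KO+cJun minus KO, by less than 2-fold (-0.81, adjusted p = 0.0336). Of 20 axon growth and regeneration genes, the best known neuronal setting of c-JUN, 17 were listed and 0 called. In KO minus WT their median was 0.00, with 1 higher and 1 lower at that level, against 7.01% and 8.16% of all genes. GAP43, a growth cone protein, had means of 694.3 in WT, 1042.5 in KO and 578.8 in KO+cJun. Its KO minus WT difference was 0.62 (adjusted p = 0.173), and KO+cJun was below KO by less than 2-fold (-0.92, adjusted p = 0.0121). SMAD1 (0.39), SOX11 (-0.46) and ITGA7 (-0.53) were the other ends of that list, with adjusted p-values of 0.592, 0.185 and 0.517. SOX11 was higher in KO+cJun than in KO by less than 2-fold (0.52, adjusted p = 0.0441).

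The libraries carried the markers of neural tissue. All 13 neuron markers, 8 of 12 neural progenitor, 9 of 9 proliferation, 6 of 12 thalamus and 13 of 15 roof plate and choroid plexus markers were listed, 3 of 11 mesenchyme markers and 1 of 6 pluripotency markers, SOX2, although the labels give embryonic stem cells as the tissue. The mean log2 value of a marker list had an r to JUN between -0.26 (neural progenitor) and 0.22 (neuron) over the 12 libraries. For JUND the range was from -0.31 (mesenchyme) to 0.57 (neuron), and for ATF3 from -0.31 (proliferation) to 0.23 (thalamus). Summed neuron markers were 7785 to 11398 in WT, 9406 to 12330 in KO and 8828 to 12741 in KO+cJun, and summed roof plate and choroid plexus markers 2922 to 5498, 3185 to 6789 and 2932 to 6685. TTR alone ran from 541 to 3453 in that sum, and single roof plate markers stood further apart than the sum. In KO minus WT 0 of the 13 were called, and the median was 0.61 against -0.02 over all genes. At an unadjusted p under 0.05, 7 were higher and 2 lower, against 7.01% and 8.16% of all genes. LMX1B (1.81, adjusted p = 0.154) and MSX1 (1.71, adjusted p = 0.130), transcription factors of the roof plate, had the highest differences. RSPO2 (-3.23, adjusted p = 0.0642) and WNT8B (-1.72, adjusted p = 0.0961), WNT signalling genes, had the lowest. All KO libraries lay above all WT libraries for LMX1B and MSX1, as for 2.74% of all genes. RSPO2 lay below WT in all KO libraries, a share not counted over all genes, and WNT8B overlapped. The part of these markers in the values of JUN, JUND and ATF3 was not tested.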

How the data were processed

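RNA-seq of 12 ThO libraries was analysed, and the 9 ATAC-seq and 2 CUT&Tag samples were not analysed here. For each library the authors deposited a list of genes with a normalized expression score, a whole number whose unit and normalization are not given in the sources used here. All libraries share the same minimum (11), median (106) and maximum (9910), so the values are relative and depth is unknown. Every listed gene exceeds 10 in every library, and genes low in any library are therefore not represented. The submitters' processing notes name bcl2fastq, Bowtie2, RSEM and hg19, but of 9386 symbols matched to RefSeq GRCh38.p14 the positions of 9384 overlap. The members and lists were chosen with earlier results of these data known. Values were analysed as log2(value + 1), which understates changes of low genes, with limma 3.58.1 in R 4.3.3: 1 mean per group, empirical Bayes with intensity trend, two-sided p, Benjamini-Hochberg adjustment over all genes, and a call at adjusted p under 0.05 and 2-fold. Exact permutation tests (two-sided, 70 arrangements) and correlations (100000 permutations) used Python 3 with numpy. The genes named were JUN, JUND, ATF3, the 10 highest and 5 lowest r to JUN, the 5 highest r to JUND and ATF3, every listed family gene, and of each list the called members and the 2 largest rises and falls in KO minus WT. Marker list members are named only where they bear on JUN, JUND or ATF3, or in the closing section. A gene of the turnover list that this rule names is not reported here. Promoter letters were searched on both strands. Steps were tested on simulated data.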

Additional observations from a re-analysis of the deposited data

How the results depend on the processing

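With limma, JUN, JUND and ATF3 kept direction and side of the threshold under both other pseudocounts, no intensity trend and only the libraries compared. JUN and JUND did so too with a minimum mean of 50, which removes ATF3. No filter and median centring only repeat the main fit, because the filter removed 0 genes and all libraries share the median (106). Quantile normalization also kept direction and side, on libraries that already share minimum, median and maximum. Library weights, 0.32 to 0.40 for KO and 1.16 to 2.03 for the others, brought JUN in KO+cJun minus WT past the threshold for p (0.74, adjusted p = 0.0434). Over all alternatives the adjusted p of JUN was 0.0588 to 0.587 in KO minus WT and 0.0434 to 0.965 in KO+cJun minus WT. The replicate block gave JUN in KO minus WT as 0.77 (adjusted p = 0.227) and changed no call of the 3 genes. Replicate numbers did not pair the samples (15 correlations of replicate differences, -0.21 to 0.26, 1 above 0.1). Exchanging libraries within a day only, the exact permutation p of JUN was 0.0556 against WT for both KO and KO+cJun, the smallest it can give.

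Leaving out 1 library at a time changed the sign of these uncalled differences. For KO minus WT, ATF3 ran from -0.033 to 0.64 over both days and -0.47 to 0.88 at day 30. For KO+cJun minus KO, JUN ran from -0.24 to 0.18 over both days, -0.69 to 0.15 at day 25 and -0.22 to 0.62 at day 30, JUND from -0.16 to 0.06 and, at day 25, -0.20 to 0.23, and ATF3 at day 30 from -1.18 to 0.17. For day 30 minus day 25, JUN ran from -0.10 to 0.18 over genotypes, -0.19 to 0.15 in WT, -0.59 to 0.26 in KO and -0.11 to 0.73 in KO+cJun, and ATF3 from -1.26 to 0.10 in KO and -0.57 to 0.68 in KO+cJun. The change of the KO effect from day to day ran from -0.57 to 0.28 for JUN and -0.88 to 0.47 for ATF3.

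The correlation of JUN and ATF3 became -0.046 as Spearman's rho, -0.32 in WT and KO+cJun only and -0.26 without the 2 farthest libraries, and ran from -0.21 to 0.15 with 1 library left out. That of JUN and JUND became -0.39 with group means subtracted, and that of JUND and ATF3 0.31, or 0.35 without the 2 farthest libraries, and -0.42 to 0.075 with 1 left out. Instead of 6 genes at r of at least 0.8 with JUN there were 13 by Spearman's rho, 110 with group means subtracted, 18 without the 2 farthest libraries, 123 in WT and KO+cJun only, and 7 to 31 with 1 library left out. Settings with fewer independent values reach that r more easily. Over the alternatives the number of genes called ranged from 0 to 538 in KO minus WT (2 as reported), 11 to 964 in KO+cJun minus KO (211 as reported, 139 with the replicate block), 3 to 91 in KO+cJun minus WT (15 as reported, 5 with the block) and 0 to 34 between days (0 as reported). Read depth is unknown, so counting error could not be given.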

Other observations

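Marker genes named by the same rule, with limma differences over both days, were these. In KO+cJun minus KO, called rises were MKI67 (1.55, adjusted p = 0.0320) and BUB1 (1.07, 0.0441) of cycling cells and SOX2 (1.27, 0.0429) of progenitors. RSPO2 (3.25, 0.00982) and WNT8B (1.74, 0.0182) of the roof plate and choroid plexus list were called rises too. Called falls were LMX1B (-2.61, adjusted p = 0.0114), MSX1 (-1.47, 0.0424) and CLDN1 (-3.20, 0.00212). In the roof plate list r to JUN ran from -0.55 (RSPO2) to 0.55 (MSX1). In KO minus WT the highest and lowest differences included COL1A2 (1.17) and PDGFRB (-0.19) for mesenchyme, NEFL (0.64) and ELAVL3 (-1.12) for neurons, PTPRZ1 (-1.69) and NOTCH1 (-1.08) for progenitors, MCM5 (0.10) and MKI67 (-1.15) for proliferation, PROX1 (0.08) and IRX3 (-0.26) for thalamus, and LMX1B (1.81) and RSPO2 (-3.23) for roof plate, none of them called.

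Of the 22 genes that, like JUN, lay above WT in all 8 KO and KO+cJun libraries, 7 fell in one short stretch of chromosome 1, far from JUN. It was chosen after its values were seen and runs from 203795623 to 205813748 (GRCh38), from ZC3H11A to SLC41A1, with 21 listed genes or 0.221% of all. The 7 genes were ZC3H11A, PLEKHA6, PPP1R15B, RBBP5, DSTYK, TMCC2 and NUAK2, of which TMCC2 is also among the 10 genes that track JUN. The mean was higher in KO than in WT for 19 of the 21 genes (47.7% of all genes) and higher in KO+cJun for 21 of 21 (50.2% of all genes). Median differences were 0.57 and 0.78 on the log2 scale, against -0.02 and 0.00 over all genes. Per library, the median of the stretch relative to the WT mean was 0.49 to 0.69 in KO, 0.65 to 0.88 in KO+cJun and -0.08 to 0.15 in WT. Among 358 windows of 5 Mb with at least 10 listed genes, the one from 205 to 210 Mb of chromosome 1 had the highest value of the lower of its 2 medians, 0.31, and the next, on another chromosome, had 0.14. The window from 200 to 205 Mb, in which the stretch begins, was number 4 with 0.13. ATF3 lies on the same arm beyond this stretch, and its neighbours had medians of 0.08 and -0.01. The cause of the pattern was not tested.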
